A study of Mus musculus with 3 samples.

Results

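Eosinophil lineage cells were picked out of 3 droplet single-cell RNA libraries of mouse bone marrow by their raw transcripts of Epx and Prg2. A cell was a member when at least 200 genes were detected in it, at most 5% of its unique molecular identifiers (UMIs, the tags that mark single captured transcripts) came from mitochondrial genes, and at least 5 UMIs each of Epx and Prg2 were counted. The rule found 116 cells of 31292 filtered cells, namely 42 from Control, 42 from IR and 32 from IR+CBD. All mice were wildtype C57BL/6 males and all marrow was taken on the same day of the study, 14 days post irradiation (DPI). Control mice received no irradiation, IR mice received a total body dose of 6.0 Gy of gamma-rays with the oil solvent, and IR+CBD mice received the same dose with injections of cannabidiol (CBD), a non-psychoactive compound of hemp, before and after irradiation. Each library pooled 3 mice, and bone marrow nucleated cells (BMNCs) sorted as Lin-Kit+, Lin-Kit- and Lin+ were remixed at 5:4:1. Each condition therefore had 1 library, so that condition and library cannot be told apart and no difference between conditions was tested. Levels are given as UMIs per 1000000 UMIs (CPM) of the summed member cells, with exact Poisson 95% intervals, and shares with exact binomial (Clopper-Pearson) 95% intervals. Ratios carry exact binomial intervals conditional on their summed UMIs. All these intervals cover counting error only, not the differences between mice or cells.

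Eosinophils are granulocytes that arise in the marrow from myeloid progenitors through a committed progenitor that carries the interleukin-5 receptor. Their precursors fill large granules with a crystalline core of major basic protein, encoded by Prg2, surrounded by eosinophil peroxidase, encoded by Epx, and by ribonucleases of the Ear family. C/EBP-epsilon, GATA-1 and PU.1 are the transcription factors best known for turning on this granule programme, while interleukin-5, interleukin-3 and GM-CSF drive the growth of the precursors. The mRNAs of granule proteins are abundant in dividing precursors and decline as the cells mature, whereas Ccr3, the eotaxin receptor, marks late and circulating eosinophils.

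Markers that the rule did not use were checked first, and of 15 late eosinophil genes 6 had no UMI in any member. Prg3, a homologue of major basic protein had a UMI in 42 of 42, 42 of 42 and 32 of 32 members of Control, IR and IR+CBD. Its median per member was 28.5, 64.5 and 38 UMIs, and its lowest value 3, 4 and 1 UMIs. Il5ra, the alpha chain of the interleukin-5 receptor, had a UMI in 19, 25 and 14 members. Ccr3 had no UMI in any member. An approximate upper limit was taken as 3 over the number of members. The share of cells with a Ccr3 UMI could thus reach 7.14% in Control and IR and 9.38% in IR+CBD. This limit is tighter than the exact interval used for other shares, and it covers cells with a captured transcript, not cells that express the gene. The prostaglandin D2 receptor Ptgdr2 and the leukotriene receptor Cysltr1 were also at 0. Since granule mRNAs decline as the cells mature, a rule on Epx and Prg2 can pass over late eosinophils. The absence of late genes is therefore tied to the rule and does not describe the late eosinophils of the marrow. The 15 late genes summed to 277 to 379 CPM in Control members and 411 to 488 CPM in those of the irradiated libraries, over the 2 classes of Ear level described later. Alox5ap alone gave 68 of 110 and 69 of 109 of these UMIs in the 2 Control classes. It was the only late gene with enough UMIs for a ratio. With each cell given the same weight, its log2 ratio over Control was -0.17 in IR and -0.09 in IR+CBD, so the order turned.

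In B cells of the same libraries, which should lack granule mRNAs, 0.607%, 0.623% and 0.203% of cells had an Epx UMI and 4.79%, 4.11% and 2.84% had a Prg2 UMI. A UMI of Prg3 was found in 6.49%, 12.3% and 10.9% of these B cells and a UMI of Il5ra in 4.19%, 3.24% and 3.18%. The B cells held a median of 5833, 4241.5 and 4089 UMIs, against 6141.5, 15897.5 and 11223 in the members. For Prg3 and Il5ra, which the rule did not use, the shares of members with a UMI stood above those of the B cells. Prg3 was at 8.63, 23.8 and 22 CPM in the B cells, against 4.24, 7.64 and 6.95 CPM in all other cells. Il5ra was at 5.64, 4.29 and 4.63 CPM in the B cells, against 1.12, 0.878 and 0.907 CPM. The B cells were thus not a plain background for these genes, and the reason was not tested.

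3 properties of the libraries bear on every later value. The first is depth, because the members of Control were shallower in the median but included 5 cells with 48014 to 74902 UMIs that held 45.3% of all member UMIs of that library. These 5 cells had 5 to 43 UMIs of Epx and 24 to 475 of Prg2, 4 of them had no Ear UMI, and 2 were predicted doublets. The second is doublets, that is droplets with more than 1 cell. Scrublet predicted 4 of 42, 9 of 42 and 19 of 32 members as doublets, or 9.52%, 21.4% and 59.4%, against 8.53%, 8.22% and 8.06% of the other cells of the libraries. The third is markers of other cell types. Of the members, 25, 31 and 19 held at least 3 UMIs of a B cell, an erythroid or a T and NK cell list. The T and NK cell list had at least 3 UMIs in 22, 30 and 18 members, at a summed 644, 987 and 926 CPM. Of its 11 genes 9, the T-cell receptor genes among them, were at 0 in all libraries. Nkg7 gave 100%, 99.7% and 100% of the list's UMIs in Control, IR and IR+CBD, so the list stands here almost entirely for Nkg7. The part of depth, doublets and these markers in the differences between libraries was not tested. Of the barcodes that passed the filter, 26 to 34 were shared between any pair of libraries, and 1 member in all shared its barcode with a cell of another library.

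**Figure D1:**
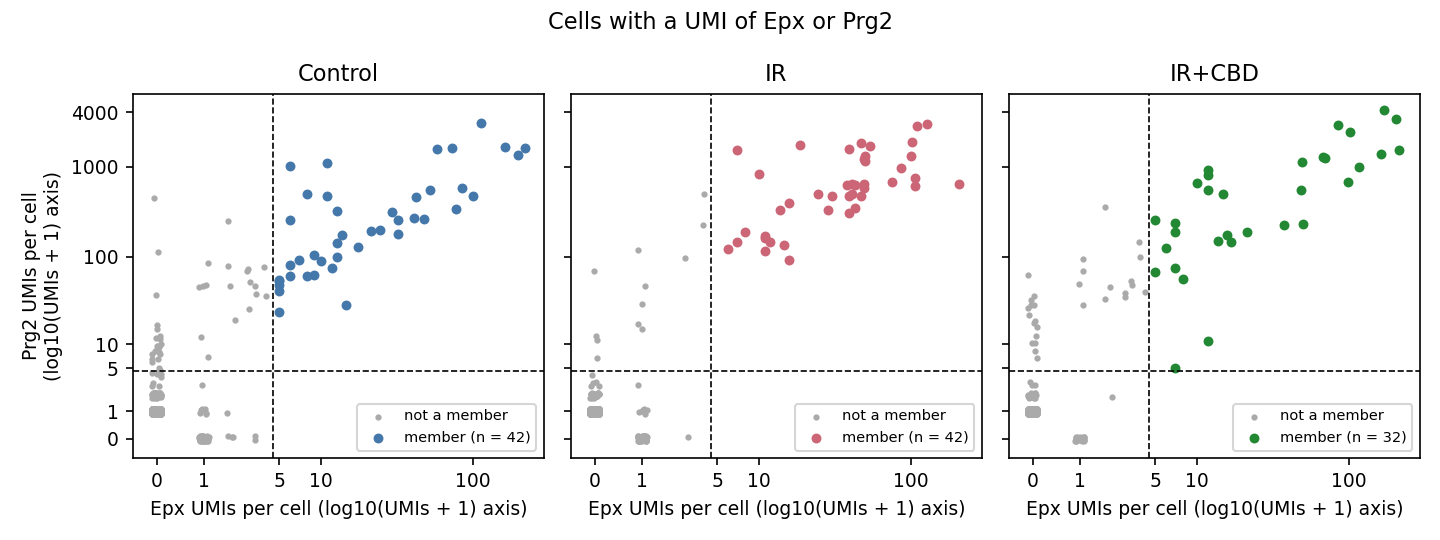
Raw UMIs of Epx (horizontal) and Prg2 (vertical) in each filtered cell, on log axes and 1 panel per library, with members coloured, other cells grey and the thresholds of 5 UMIs as dashed lines. Members reach 216 UMIs of Epx and 4209 of Prg2, and no cell lies in the corner with Epx above and Prg2 below its threshold.

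The threshold was set by Epx far more than by Prg2. In no library did a cell hold at least 5 UMIs of Epx with fewer than 5 of Prg2, while 39, 12 and 29 cells held at least 5 UMIs of Prg2 with fewer than 5 of Epx. Just inside, 5, 0 and 2 members had exactly 5 UMIs of Epx. Just outside, 2, 2 and 3 cells had 4 UMIs of Epx with at least 5 of Prg2, at a Prg2 median of 54.5, 386 and 98 UMIs. In the members Epx ran from 5 to 216 UMIs in Control (median 13.5), from 6 to 205 in IR (median 41) and from 5 to 208 in IR+CBD (median 16.5), and Prg2 from 24 to 3002 (median 230), 92 to 2967 (median 614.5) and 5 to 4209 (median 527.5).

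Eosinophil lineage cells made up under 1% of each remixed library. The share was 0.394% (0.284 to 0.532) of 10674 cells in Control, 0.406% (0.293 to 0.548) of 10345 cells in IR and 0.312% (0.213 to 0.44) of 10273 cells in IR+CBD. The ratio of IR over Control was 1.03 (0.657 to 1.62), of IR+CBD over IR 0.767 (0.469 to 1.25), and of IR+CBD over Control 0.792 (0.484 to 1.28), each with an interval that spans 1. Without predicted doublets 38, 33 and 13 members stayed, and the IR+CBD ratios were 0.396 over IR and 0.354 over Control. With cells thinned to 3000 UMIs and a threshold of 2 UMIs of both genes, IR over Control was 1.58 and IR+CBD over Control 1.17. Without members that held markers of other types, for most of them Nkg7, 17, 11 and 13 members stayed. IR over Control was then 0.668 and IR+CBD over IR 1.19. The order of the shares thus depended on the setting. The sort and the 5:4:1 mix set these shares, which are therefore not shares of the marrow.

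The genes with the highest levels in members relative to all other cells included granule genes, Il5ra, Cebpe and a number of others. Ranked by the lowest of the 3 within-library CPM ratios, the leading 20 were Epx, Prg2, Ear1, Ear6, Prg3, Ldhc, Il5ra, Ear2, Rnase12, Arsb, Cyp11a1, Gm11697, Gm8113, Ikzf2, Cd63, Cpa3, Cebpe, Olr1, Stx3 and Vcam1. These ratios describe cells picked by their transcripts and carry no test. Prg3 was 739-fold, 600-fold and 776-fold above the other cells in Control, IR and IR+CBD. Ear1 stood 1689-fold, 3863-fold and 2233-fold above them, and Ear6 1192-fold, 1905-fold and 1053-fold. Il5ra was 66.7-fold, 92.4-fold and 77.1-fold above them.

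Several of the leading genes were not textbook granule genes. Ldhc, the lactate dehydrogenase subunit known from testis, was at 279, 445 and 340 CPM, which was 136-fold, 199-fold and 142-fold above the other cells. Arsb, the lysosomal arylsulfatase B, was at 859, 973 and 781 CPM against 41.8, 36.7 and 41.8 CPM in the other cells. Ikzf2, the zinc-finger factor Helios, was at 821, 662 and 542 CPM against 65.3, 49.5 and 54.9 CPM. Rnase12, a member of the ribonuclease A superfamily, was at 302, 451 and 460 CPM. Stx3, a syntaxin of membrane fusion, was at 93.5, 75.3 and 96.4 CPM, and Vcam1, an adhesion molecule, at 62.8, 62.3 and 67.5 CPM. Cyp11a1, the cholesterol side-chain cleavage enzyme that basophils and mast cells also carry, was at 59.9, 68.1 and 48.2 CPM.

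Major basic protein mRNA was the most abundant transcript of the members in each library. Prg2 summed to 29133 CPM (28731 to 29541) in Control, 49155 (48633 to 49681) in IR and 65596 (64819 to 66380) in IR+CBD. The median of the cells was 39336, 48956 and 61476 CPM, with single cells from 199 to 222052 CPM. After removal of the 5 deepest Control cells its level was 50102 CPM, above the level in IR. Epx summed to 2379, 2902 and 4002 CPM, while the cell medians ran in another order, with Control at 4229, IR at 2511 and IR+CBD at 2803, and the Control sum without its 5 deepest cells was 4088 CPM. Prg3 summed to 3133, 4583 and 5388 CPM, with cell medians of 3932, 4716 and 3697 CPM and 4085 CPM in Control without those cells. Granule genes together took a median of 5.5%, 5.59% and 6.97% of the UMIs of a cell, from 0.167% to 24.3% over the 116 cells. By the rule's own arithmetic a shallow cell reached 5 UMIs of Epx only at a high CPM, and 20, 7 and 8 members held fewer than 5000 UMIs. The cells of the 3 libraries overlapped in each of these genes.

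**Figure D2:**
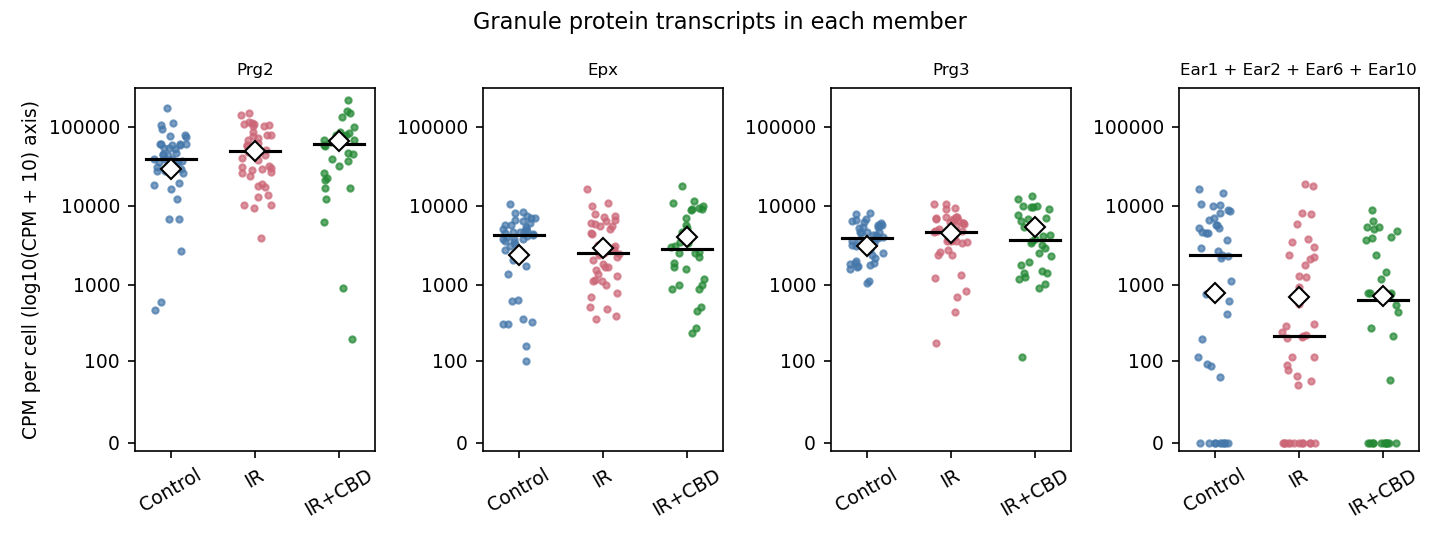
CPM in each member cell (points, log axis after adding 10 CPM) of Prg2, Epx, Prg3 and the summed Ear genes in the 3 libraries, with the median of the cells as a black line and the pooled CPM as a white diamond. The cells of the libraries overlap in every panel, and for Epx the cell median is highest in Control, at 4229 CPM, while the pooled value is lowest there, at 2379 CPM.

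The eosinophil-associated ribonucleases were found in a part of the members. Ear6 had a UMI in 26 of 42, 21 of 42 and 17 of 32 members, at 393 (347 to 443), 236 (201 to 275) and 244 CPM (198 to 296). Ear1 was at 191, 172 and 219 CPM and Ear2 at 199, 278 and 258 CPM, while Ear10 and Ear14 had no UMI in any member. When the 5 deepest Control cells were left out, Ear1, Ear2 and Ear6 were at 350, 363 and 703 CPM in Control. In the reference transcripts, the last 300 bases of Ear1 and Ear2, where a 3-prime library reads, were 98.7% identical, and those of Ear1 and Ear6 89.9% identical over their aligned part. How reads were divided among these copies is uncertain, and their sum does not depend on that division.

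The start-site regions of these genes are shown because the ribonucleases share more than their coding sequence, and because Prg3 and Il5ra hold letters that GATA factors are known to read. RefSeq sequences (build GRCm38.p6, 250 bases before to 50 bases after the start) were found for 6 of 8 genes looked up. The promoters of Ear1 and Ear2 were 99% identical and those of Ear1 and Ear6 92.8% identical. Capitals mark matches to TTNNGCAA or TTNNGTAA, C/EBP-type letters, in the Ear genes, and to the GATA hexamers AGATAA and AGATAG as well as TGATAA and TGATAG in Prg3 and Il5ra, each searched on both strands.
Ear1 (chr14:43819590-43819889, minus strand): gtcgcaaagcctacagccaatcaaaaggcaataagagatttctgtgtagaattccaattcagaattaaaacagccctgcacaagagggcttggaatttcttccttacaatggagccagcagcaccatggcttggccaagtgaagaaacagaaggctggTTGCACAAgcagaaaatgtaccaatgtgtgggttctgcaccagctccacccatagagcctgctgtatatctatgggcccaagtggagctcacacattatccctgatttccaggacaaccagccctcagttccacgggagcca
Ear2 (chr14:44102404-44102703, plus strand): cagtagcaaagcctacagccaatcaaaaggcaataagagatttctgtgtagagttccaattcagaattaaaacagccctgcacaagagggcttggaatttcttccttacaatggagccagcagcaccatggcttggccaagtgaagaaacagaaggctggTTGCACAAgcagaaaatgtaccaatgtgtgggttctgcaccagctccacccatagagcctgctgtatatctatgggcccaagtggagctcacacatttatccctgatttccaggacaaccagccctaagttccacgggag
Ear6 (chr14:51853518-51853817, plus strand): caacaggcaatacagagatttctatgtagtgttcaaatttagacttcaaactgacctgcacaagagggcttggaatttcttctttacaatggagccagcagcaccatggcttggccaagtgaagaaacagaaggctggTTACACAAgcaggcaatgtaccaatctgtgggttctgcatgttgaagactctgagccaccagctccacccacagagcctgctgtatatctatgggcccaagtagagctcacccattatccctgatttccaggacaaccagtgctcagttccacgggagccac
Prg3 (chr2:84987965-84988264, plus strand): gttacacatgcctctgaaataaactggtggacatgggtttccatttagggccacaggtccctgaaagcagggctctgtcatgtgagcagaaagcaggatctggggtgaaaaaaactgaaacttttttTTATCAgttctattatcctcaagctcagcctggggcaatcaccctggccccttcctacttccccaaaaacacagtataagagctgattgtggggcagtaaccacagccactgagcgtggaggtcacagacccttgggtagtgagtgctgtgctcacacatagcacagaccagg
Il5ra (chr6:106748988-106749287, minus strand): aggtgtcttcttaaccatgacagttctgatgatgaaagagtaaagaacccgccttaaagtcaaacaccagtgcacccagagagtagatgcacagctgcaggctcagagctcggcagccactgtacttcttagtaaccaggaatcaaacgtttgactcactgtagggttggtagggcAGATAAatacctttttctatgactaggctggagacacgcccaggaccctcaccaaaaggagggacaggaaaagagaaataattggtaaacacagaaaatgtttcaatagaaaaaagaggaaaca
The C/EBP-type match began at -92 in Ear1, -90 in Ear2 and -112 in Ear6, counted from the start site, and the GATA match at -123 in Prg3 and -74 in Il5ra. The Epx window held neither. Of all 32851 promoters in the table, 18.5% held the C/EBP-type letters and 29.8% the GATA letters, so these matches are descriptions of the letters and not of sites in use. The builds differ, since the counts were made on GRCm39, and the coordinates belong to GRCm38.p6 alone.

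Among receptors, most of the list was at low UMIs. Only 5 of 20 receptor genes reached 100 UMIs over Control and IR. Il5ra was at 74.5 CPM (55.5 to 97.9) in Control, 81.1 (61.3 to 105) in IR and 69.9 (46.8 to 100.4) in IR+CBD. Siglecf, the inhibitory lectin of mouse eosinophils, was at 33.6 (21.3 to 50.4), 62.3 (45.1 to 83.9) and 50.6 CPM (31.3 to 77.4), with overlapping intervals. Csf2rb, the signalling chain shared by the receptors for interleukin-3, interleukin-5 and GM-CSF, was at 121, 66.6 and 67.5 CPM, but at 53.4 CPM in Control without its 5 deepest cells. Alox5ap, the partner of 5-lipoxygenase in leukotriene synthesis, was at 200.1, 277 and 294 CPM, but at 262 CPM in Control without its 5 deepest cells. Cnr2, a cannabinoid receptor of immune cells, gave 21, 19 and 9 UMIs in all, in 12, 12 and 9 members. Its ratios were not formed, since Cnr2 stayed under 100 UMIs.

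Transcription factors of the granulocyte programme were present throughout. Cebpe, the factor of the late granule programme, had a UMI in 34, 39 and 29 members and was at 448 (400 to 502), 755 (691 to 822) and 752 CPM (671 to 840). Without the 5 deepest Control cells Cebpe was at 556 CPM there. Gata1 was at 33.6, 47.8 and 33.8 CPM and Gata2, its relative in progenitors, at 55.5, 57.9 and 74.7 CPM. Spi1, which encodes PU.1, was at 171, 180 and 176 CPM. Runx1, a core haematopoietic factor, was at 907, 510 and 600 CPM, and Myb, a factor of dividing progenitors, at 878, 679 and 610 CPM. The levels of Gata1, Gata2 and Spi1 overlapped within their counting intervals across the libraries.

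The members also carried mRNAs of neighbouring granulocyte lineages. Mpo, the myeloperoxidase of primary granules, was at 4034, 4421 and 3835 CPM, and Elane, the neutrophil elastase, at 1820, 1467 and 2283 CPM. After removal of the 5 deepest Control cells Elane was at 1114 CPM in Control, below IR. Mpo had a UMI in 60.3%, 38.9% and 44% of the B cells as well, and Elane in 42.2%, 26.7% and 33.4%. A share of cells with a UMI of either gene thus carries no weight here. In the B cells Mpo was at 898, 632 and 658 CPM and Elane at 696, 466 and 465 CPM. The sum of 5 primary granule genes was 10868, 11500 and 12321 CPM, against 29133, 49155 and 65596 CPM for Prg2 alone. Among basophil and mast cell genes, Cpa3, a carboxypeptidase, was at 720 (658 to 787), 992 (919 to 1069) and 1323 CPM (1215 to 1439). Mcpt8, the basophil protease, was at 520, 1153 and 1420 CPM and had a UMI in 28, 36 and 27 members, against 4.67%, 3.57% and 3.79% of the B cells. Tpsb2, Tpsab1 and Cma1, proteases of mast cells, were at 0 in all libraries. The basophil and mast cell list summed to 2337, 3220 and 4182 CPM, and 5 of its 16 genes were at 0.

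Levels of neutrophil genes of the later granules rested on single cells. The list of secondary granule and later genes summed to 481, 3036 and 2051 CPM, but 1 cell gave 86.3% of its UMIs in IR and 1 cell 71.8% in IR+CBD. The median member had 750, 417 and 628 CPM of this list. The highest cell held 171161 CPM in IR and 205863 CPM in IR+CBD, against 4545 CPM in Control. These 2 cells were members by their own Epx and Prg2 UMIs, but the IR cell was a predicted doublet. It held 10569 UMIs, with 12 of Epx and 145 of Prg2. The IR+CBD cell, not a predicted doublet, held 2968 UMIs, with 67 of Prg2 and 5 of Epx, the minimum of the rule.

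Members could be ordered by their Ear transcripts, which the rule did not use. A cut at 3 UMIs of the Ear sum, chosen after the values were seen, split them into 41 cells below (11, 17 and 13) and 75 cells at or above it (31, 25 and 19). Their Ear UMIs were 0 in 9, 12 and 11 cells and 3 to 5 in 5, 7 and 2 cells. Cells with fewer than 3 Ear UMIs were deeper, at a median of 20765 UMIs against 7132, and their primary granule genes took a median of 1.12% of UMIs against 0.577%. In Control the primary granule median was 1.1% (0.402% to 1.98%) below the cut and 0.53% (0.126% to 1.54%) above it. In IR it was 1.23% (0.325% to 2.3%) and 0.585% (0.0563% to 1.8%), and in IR+CBD 1.12% (0.202% to 2.82%) and 0.629% (0.0742% to 1.62%). The direction was the same in the 3 libraries, although the cells of both classes overlapped. In each library the cells below the cut were also deeper, at medians of 29048, 20046 and 20903 UMIs against 3516, 12492 and 9043. The same rule picked the members of all 3 libraries, so their agreement adds no separate support for an order by Ear transcripts. The part of depth and of the rule in the primary granule shares was not tested. Predicted doublets were 12 of 41 and 20 of 75 cells. Epx was at 1250, 1677 and 2862 CPM below the cut and at 3938, 4210 and 5708 CPM at or above it. This difference carries no weight, because the rule used Epx and the cells above the cut were shallower. A shallow cell became a member only at a high Epx CPM.

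**Figure D3:**
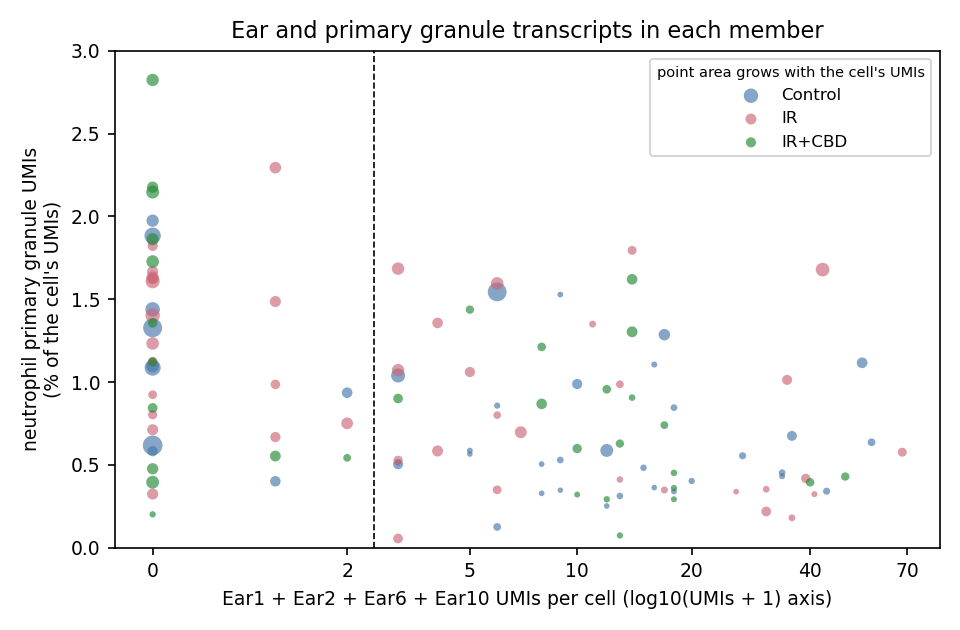
Summed Ear UMIs (horizontal) against the percent of UMIs from primary granule genes (vertical) in each member, by library, with the cut between 2 and 3 Ear UMIs dashed and point area growing with the UMIs of the cell. Cells below the cut hold a median of 1.12% primary granule UMIs and cells at or above it 0.577%, with overlap in every library.

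Fewer of the members were rich in cell-cycle transcripts in the irradiated libraries. Members were put in terciles by the percent of UMIs from S-phase and G2/M genes, with bounds at 0.554% and 1.06% set over all 116 cells, of which 21 lay within 10% of a bound. The terciles are ranges of a score and not types. The highest tercile held 20 of 42 members (47.6%, 32 to 63.6) in Control, 12 of 42 (28.6%, 15.7 to 44.6) in IR and 7 of 32 (21.9%, 9.28 to 40) in IR+CBD. The intervals of the 3 libraries overlapped. All 5 of the deepest Control cells, at 1.14% to 1.35% of UMIs, lay in the highest tercile. The lowest tercile held 8, 16 and 15 members. Prg2, which the rule used, was at 75937, 79211 and 90149 CPM in the lowest tercile, 44933, 44795 and 82760 CPM in the middle one and 14077, 20001 and 17037 CPM in the highest.

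Because the libraries differed in depth, each cell was also thinned to 3000 UMIs, which left 28, 40 and 27 members and set aside 14, 2 and 5. After thinning, Mki67, a marker of dividing cells, had a UMI in 39.3% (21.5 to 59.4), 20% (9.05 to 35.7) and 22.2% (8.62 to 42.3) of members, against 47.6%, 38.1% and 43.8% unthinned. At 5000 UMIs per cell the Mki67 shares were 31.8%, 22.9% and 33.3%, with IR+CBD above Control. At 3000 UMIs Top2a, the topoisomerase of the G2 phase, had one in 50% (30.7 to 69.4), 32.5% (18.6 to 49.1) and 22.2% (8.62 to 42.3). Any Ear gene was found in 53.6%, 45% and 51.9%, Il5ra in 28.6%, 17.5% and 29.6%, and Cebpe in 75%, 72.5% and 81.5% of the thinned cells. Mcpt8 had a UMI in 50% (30.7 to 69.4), 55% (38.5 to 70.7) and 77.8% (57.7 to 91.4). Intervals of the 3 libraries overlapped for every one of these genes.

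**Figure D4:**
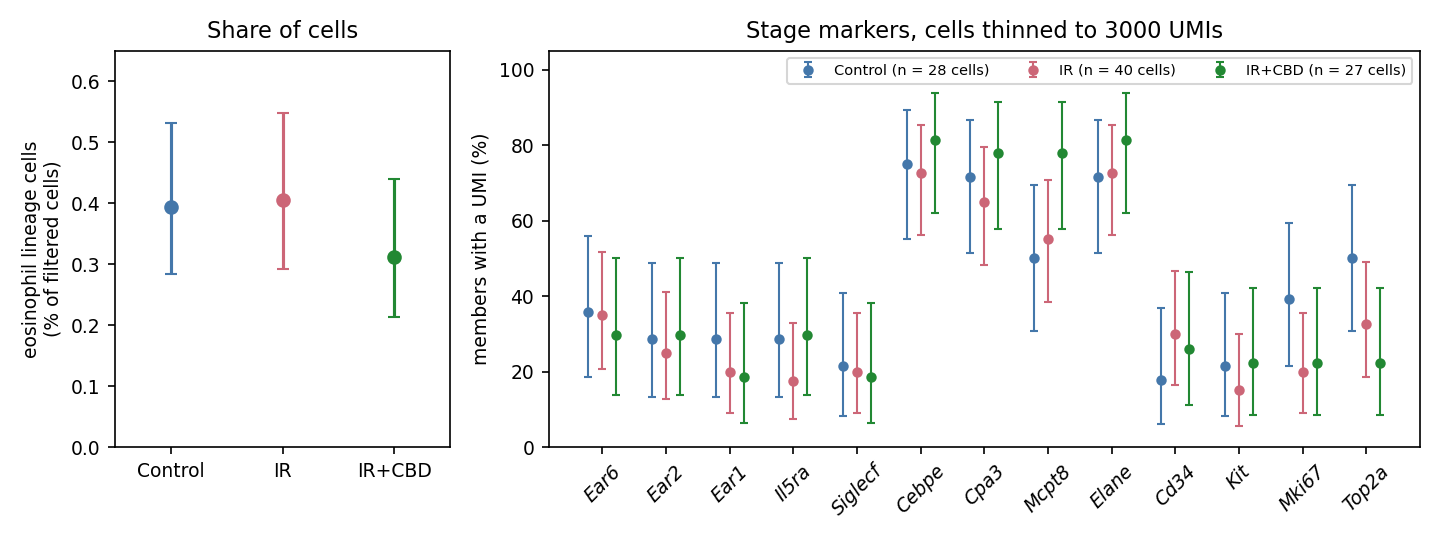
Left, eosinophil lineage cells as percent of filtered cells in each library, with exact 95% intervals. Right, percent of members with a UMI of each stage marker after thinning to 3000 UMIs per cell (28, 40 and 27 members), where Mki67 stands at 39.3%, 20% and 22.2%.

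The next comparisons ask how the transcripts of the members differed between the libraries, gene by gene, among genes with at least 100 UMIs over both libraries compared. A gene was counted as higher or lower past a 1.5-fold difference in CPM, with no test. The 3 comparisons share libraries and are therefore not independent of each other. For IR over Control, 2421 genes were compared, of which 2.89% were higher and 10.2% lower. For IR+CBD over IR these were 1.38% and 4.24% of 1745 genes, and for IR+CBD over Control 3.03% and 15% of 1880 genes. With each cell given the same weight, the share of higher genes among those past the fold was 38.6%, 42.8% and 33.7%, against 22%, 24.5% and 16.8% for the summed UMIs. When the 5 deepest Control cells were left out, 153 genes instead of 248 were lower in IR and 125 instead of 282 in IR+CBD than in Control. The median log2 ratio of all genes was -0.09, -0.04 and -0.14.

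In IR over Control, 1 of 6 eosinophil granule genes was higher (Prg2, which the rule used) and 1 lower (Ear6), beside backgrounds of 2.89% and 10.2%, and the list's median log2 ratio was 0.39. Without the 5 deepest Control cells that median was -0.44, so the direction of the list turned. Of the 11 transcription factors compared, Cebpe and Cebpb were higher and Runx1 lower. Cebpe had a ratio of 1.68 (1.46 to 1.94) in the members and 1.21 (1.03 to 1.43) in basophil or mast cells. Its ratio was 0.895 (0.861 to 0.931) in granulocyte progenitors and 0.9 (0.874 to 0.927) in all other cells of the libraries. After removal of the 5 deepest Control cells the Cebpe ratio was 1.36 and Cebpb, at 110 CPM in Control against 161 in IR, also stayed under 1.5-fold. Myc, the growth regulator, was at 58.4, 128 and 82 CPM, and Kit, the stem cell factor receptor, at 118, 63.7 and 94 CPM. With each cell given the same weight, Myc was not 1.5-fold higher in IR than in Control. Mcpt8 was 2.22 times as high in IR as in Control (1.96 to 2.52) in the members, whereas in basophil or mast cells of the same libraries the ratio was 0.751 (0.737 to 0.766) and in B cells 1.61 (1.47 to 1.77). When the 5 deepest Control cells were left out, the ratio in the members was 1.39, under 1.5-fold. Those basophil or mast cells were 226, 193 and 184 non-members with at least 3 UMIs each of Mcpt8 and Cpa3, so their levels of both genes were themselves selected on. The difference between these ratios was not tested, since each condition is 1 library.

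Genes of antigen presentation stood higher in IR than in Control and lower in IR+CBD than in IR. Of 11 MHC class I genes compared between IR and Control, 4 were higher and 0 lower, beside 2.89% and 10.2% of all genes, and 11 of 11 had a ratio above 1, with a median log2 ratio of 0.39 against -0.09 for all genes. B2m, the light chain of class I molecules, was at 723 (661 to 790), 1546 (1454 to 1641) and 981 CPM (888 to 1081). It had a UMI in 40 of 42, 42 of 42 and 30 of 32 members. H2-K1 was at 587, 1150 and 784 CPM and H2-D1 at 456, 923 and 610 CPM, both classical class I heavy chains. H2-Q7, a non-classical class I gene, was at 48.2 (33.2 to 67.7), 167 (138 to 200) and 57.9 CPM (37.1 to 86.1), with a UMI in 12, 32 and 13 members. In IR+CBD over IR, 4 of 10 class I genes were lower and 0 higher, beside 4.24% and 1.38% of all genes, with a median log2 ratio of -0.48.

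The same genes were shifted in every other class of cells examined. For B2m the IR over Control ratio was 2.14 (1.92 to 2.38) in the members and 1.62 (1.61 to 1.63) in all other cells, and for H2-Q7 it was 3.46 (2.33 to 5.26) and 3.39 (3.32 to 3.46). In the members the H2-Q7 ratio was 6.24 without the 5 deepest Control cells, where 10 UMIs were left in Control, and 7.08 with each cell given the same weight. The IR+CBD over IR ratio of H2-Q7 was 0.347 (0.214 to 0.543) in the members and 0.46 (0.451 to 0.468) in all other cells. The interferon-induced genes Ifi27 and Bst2 were the only 2 of 62 interferon response genes with 100 UMIs in IR and Control. Ifi27 was at 52.6, 136 and 69.9 CPM and Bst2, also known as tetherin, at 150, 230 and 135 CPM. Without the 5 deepest Control cells Bst2 was at 171 CPM in Control, and IR was then under 1.5-fold above it. In all other cells Ifi27 had ratios of 2.48 for IR over Control and 0.452 for IR+CBD over IR, and in the members 2.59 and 0.513. The direction in the members and in all other cells was the same for these genes.

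Cell-cycle genes stood lower in the members of both irradiated libraries than in those of Control. In IR over Control, 5 of 21 S-phase genes and 8 of 19 G2/M genes were lower and 0 of either higher, beside 10.2% and 2.89% of all genes, with median log2 ratios of -0.29 and -0.45. In IR+CBD over Control, 8 of 19 S-phase genes and 8 of 17 G2/M genes were lower, at medians of -0.49 and -0.56, beside a background of 15% lower. Mki67 was at 243 (207 to 282), 113 (89.3 to 141) and 77.1 CPM (52.8 to 109). Its IR over Control ratio was 0.466 (0.351 to 0.614) in the members, 1.16 (1.06 to 1.28) in basophil or mast cells, 0.762 (0.743 to 0.782) in granulocyte progenitors and 0.996 (0.982 to 1.01) in all other cells. Top2a was at 330, 181 and 147 CPM, with ratios of 0.549 (0.437 to 0.686) in the members and 1.01 in all other cells. After removal of the 5 deepest Control cells Mki67 was at 179 CPM and Top2a at 289 CPM in Control, so the order stayed but the gap was smaller. In members with fewer than 3 Ear UMIs alone the G2/M median of IR+CBD over Control was 0.18, and without the highest cell-cycle tercile it was 0.17, above 0 in both cases. The S-phase median of that comparison was 0.22 in members with 3 or more Ear UMIs alone.

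**Figure D5:**
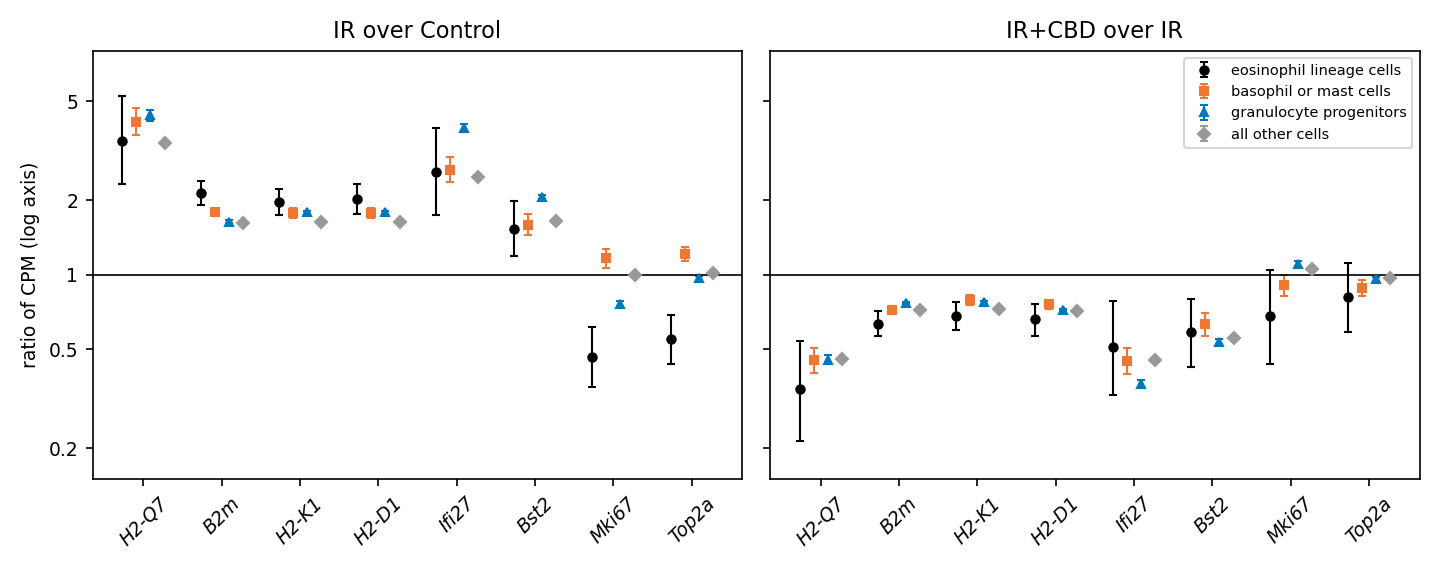
Ratios of CPM with exact 95% intervals for IR over Control and for IR+CBD over IR, on a log axis, for 6 class I and interferon genes and 2 cell-cycle genes in members, basophil or mast cells, granulocyte progenitors and all other cells. For H2-Q7 the members stand at 3.46 and all other cells at 3.39 in IR over Control, while for Mki67 they stand at 0.466 and 0.996.

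CBD-treated and solvent-treated irradiated libraries differed in few member genes. In IR+CBD over IR, 0 of 6 granule genes and 0 of 10 transcription factors passed 1.5-fold in either direction, beside 1.38% higher and 4.24% lower of all genes, so that counts of 0 in lists of this size lie near the background. The median of the granule list was 0.29. Prg2 had a ratio of 1.33 (1.31 to 1.36) in the sum and 1.12 with each cell given the same weight. Prss34, a basophil protease, was at 276, 272 and 649 CPM, with a UMI in 9, 15 and 8 members. Cxcl10, an interferon-inducible chemokine, was at 121, 44.9 and 244 CPM, in 14, 8 and 13 members, with 72.1 CPM in Control without its 5 deepest cells. Elane was 1.56 times as high (1.42 to 1.7), but at a ratio of 0.66 without predicted doublets, and Nfkbia, the inhibitor of NF-kappaB, at 927, 753 and 1174 CPM had a ratio of 1.56 (1.37 to 1.77), but 0.982 with each cell given the same weight. Ifitm3, an interferon-induced membrane protein, was lower, at 96.4, 187 and 50.6 CPM, as was Myc. With each cell given the same weight, Myc was not lower past 1.5-fold.

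Against Control, IR+CBD had 3 of 6 granule genes higher, namely Prg2, Epx and Prg3, and Ear6 lower, beside 3.03% and 15% of all genes. Epx and Prg2 were used by the rule, and without the 5 deepest Control cells, which hold few granule UMIs, Control Epx was at 4088 CPM against 4002 in IR+CBD, and the ratios of Prg2 and Prg3 were 1.31 and 1.32. None of the 3 then passed 1.5-fold, nor with each cell given the same weight, and the list median was -0.26 in place of 0.56. Of 5 basophil and mast cell genes, Mcpt8, Prss34 and Cpa3 were higher. When the 5 deepest Control cells were left out, their ratios were 1.71, 1.29 and 1.52, so that Prss34 no longer passed 1.5-fold. The Mcpt8 ratio was 2.73 (2.39 to 3.12) in the members, 0.826 (0.809 to 0.843) in basophil or mast cells and 2.29 (2.08 to 2.52) in B cells. For Cpa3 these ratios were 1.84 (1.63 to 2.08), 0.95 (0.919 to 0.982) and 1.75 (1.48 to 2.07). Pglyrp1, a granule protein that binds bacterial peptidoglycan, was at 78.9 (59.3 to 103), 185 (155 to 221) and 272 CPM (225 to 328), with a UMI in 22, 36 and 28 members. Without the 5 deepest Control cells Pglyrp1 and Adgrl4 were each at 128 CPM in Control, which moved the ratio of Pglyrp1 from 3.45 to 2.12, and Ctsh was at 139 CPM. Ctsh, a lysosomal cathepsin, was at 89.1, 220 and 222 CPM. Adgrl4, an adhesion receptor known from endothelium, and Angpt1, the angiopoietin ligand of Tie2, were lower, at 209, 99.95 and 62.7 CPM and at 459, 275 and 176 CPM.

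Some of the genes with the widest ratios were carried by single cells. Ltf, the lactoferrin of secondary granules, had 3 UMIs in Control and 211 CPM in IR, a ratio of 48.3 (16.2 to 237), but 1 cell gave 95.9% of its UMIs. Ngp had a ratio of 15.9 (9.62 to 28.3) with 94.6% from 1 cell, and S100a8 and S100a9, the calprotectin subunits, ratios of 5.69 and 5.46 with 86.5% and 84.3% from 1 cell. Car1, the carbonic anhydrase of early erythroid cells, was at 266, 43.5 and 142 CPM with up to 96.2% of its UMIs from 1 cell. Without predicted doublets the IR over Control ratios of Ngp, S100a8 and S100a9 were 0.73, 0.80 and 0.934, and without the 5 deepest Control cells that of Car1 was 8.13. Ebf1, the B-lineage factor, was at 199, 181 and 432 CPM with up to 84% from 1 cell. Among the lists with many abundant genes, 0 of 68 oxidative phosphorylation genes and 0 of 27 secretory pathway genes passed the fold in either direction between IR and Control, at medians of 0.09 and 0.07. No MHC class II gene reached 100 UMIs in any comparison.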

How the data were processed

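The authors deposited 1 matrix of raw UMI counts per gene and droplet for each of the 3 libraries, made with Cell Ranger (version 4.0 by the submitters' processing notes, 7.0.1 by the matrix headers) on build GRCm39. The libraries hold 177806843 to 206932522 UMIs in 11884 to 12200 barcodes. Barcodes with fewer than 200 genes or more than 5% mitochondrial UMIs were removed, as in the study. The study also filtered out doublets predicted by DoubletFinder, whereas here no doublet was removed from the main values. Doublets were predicted within each library with Scrublet (scanpy 1.11.5) at a rate of 0.8% per 1000 cells.

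Cells are not replicates, and with 1 library of 3 pooled mice per condition no test was made and no p-value is given. UMIs were summed over the members of a library and scaled to 1000000. Ratios were formed for genes with at least 100 UMIs over both libraries compared, and a gene was counted past 1.5-fold. Basophil or mast cells were non-members with at least 3 UMIs each of Mcpt8 and Cpa3, and granulocyte progenitors (2331, 2419 and 2754 cells) had at least 5 UMIs each of Elane and Mpo, and B cells (1648, 2406 and 1478) at least 5 each of Cd79a and Cd79b. Fold ratios carried no pseudocount, and the log2 ratios behind list medians added 0.5 UMI to each sum.

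Named genes were those of 29 lists, the 10 highest and 10 lowest of each comparison ranked by the interval bound that lay closer to 1, of which the text names the leading ones, and the 20 with the highest ratio of members over other cells. The members and lists were chosen with earlier results of these data known. Alternatives changed the UMI thresholds, filters, depth, doublets, weight of each cell and fold. The ratio and interval functions were checked on simulated counts. Python 3.11.15, numpy 2.4.6, scipy 1.17.1, pandas 2.3.3, Biopython 1.88 and matplotlib 3.10.9 were used.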

Additional observations from a re-analysis of the deposited data

How the results depend on the processing

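Each condition was 1 library, so the mice of a library and the spread between libraries stay unknown, and about 32 to 42 cells per library limit every share. Of the alternatives, 3 were chosen after seeing the data: leaving out members over 40000 UMIs, and keeping only members under 3 Ear UMIs or only those with 3 or more. For results that moved the cause was not tested. The share ratios of IR+CBD moved without predicted doublets, to 0.396 over IR and 0.354 over Control. For IR over Control, 70 genes were higher and 248 lower, which became 184 and 639 at 50 UMIs, 28 and 83 at 200 UMIs, 261 and 415 with each cell given the same weight, and 21 and 37 at 2-fold. The lower genes were 67 without the highest cell-cycle tercile, 153 without members over 40000 UMIs and 119 under 3 Ear UMIs, and 46 were higher and 106 lower in members with 3 or more. For IR+CBD over IR, 24 higher and 74 lower became 108 and 296 at 50 UMIs, 7 and 13 at 200 UMIs, 80 higher with equal cells, 5 and 7 at 2-fold, and 33 lower with 3 or more Ear UMIs. For IR+CBD over Control, 57 higher and 282 lower became 146 and 761 at 50 UMIs, 32 and 75 at 200 UMIs, 140 higher with equal cells, 13 and 63 at 2-fold, 29 higher and 49 lower without that tercile, 175 lower without doublets, 125 without members over 40000 UMIs, 137 under 3 Ear UMIs, and 20 and 76 with 3 or more. The granule list median of members under 3 Ear UMIs was 0.81, 0.57 and 1.20 in the 3 comparisons, and the class I median of IR+CBD over Control was 0.48 at 10 UMIs of both genes. Thinning to 2000 UMIs gave 27.3%, 12.2% and 6.45% of Control, IR and IR+CBD members with Mki67, and to 5000 UMIs 31.8%, 22.9% and 33.3%. At 5000 UMIs Elane had a UMI in 85.7% of IR and 95.8% of IR+CBD members, but B cells held Elane UMIs as well. Directions turned, with ratios for genes and log2 medians for lists, for IR over Control without doublets in the secondary granule list (median -0.21), Ngp (0.73), S100a8 (0.80) and S100a9 (0.934), under 3 Ear UMIs in Ngp (0.557), S100a8 (0.601) and Lcn2 (0.334), without members over 40000 UMIs in Car1 (8.13), H2ac8 (1.21) and H1f5 (1.74), without the highest tercile in H2ac8 (2.63) and H1f5 (1.31), and with 3 or more Ear UMIs in Car1 (9.05). They turned for IR+CBD over IR without doublets in the secondary granule list (3.11), Elane (0.66), Ube2c (0.989), Ltf (20.8), Ngp (19.3) and Ly6c2 (2.47), with equal cells in that list (0.39), Nfkbia (0.982) and Ngp (1.18), under 3 Ear UMIs in that list (3.11), Lyz2 (1.10), Ngp (30.6) and Ly6c2 (1.27), without the highest tercile in Ly6c2 (1.29), and with 3 or more Ear UMIs in Ube2c (0.0467). The receptor list median of IR+CBD over Control turned to 0.11 at 50 UMIs, 0.16 with equal cells, 0.17 without the highest tercile and 0.72 under 3 Ear UMIs. By the limits set, 1158 values kept their size, 382 moved and 32 turned. These limits did not catch every change of sign. Without members over 40000 UMIs, the granule list median was -0.44 for IR over Control and -0.26 for IR+CBD over Control. Both counted as kept, although the main values were 0.39 and 0.56. The secretory pathway and immediate early medians of IR over Control, then at -0.05 and -0.36, counted as moved.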
